A study of Mus musculus with 2 samples.

Results

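The vacuolar ATPase and the lysosomal mTORC1 machinery were examined as RNA in mouse bone marrow-derived macrophages, phagocytes grown from marrow of C57BL/6J mice. The genes were taken by symbol: V-ATPase subunits and accessory proteins, the Ragulator subunits Lamtor1 to Lamtor5, the Rag GTPases, Mtor, Rptor, Mlst8, Rheb, the folliculin complex, and the transcription factors Tfeb, Tfe3 and Mitf, each with a protein-coding transcript. This gave 45 of 55536 annotated genes, or 45 of the 21901 with a protein-coding transcript. Of these, 25 are V-ATPase genes and 19 belong to the mTORC1 and MiT factor side. The remaining gene, Atp6v1fnb, matched by its name and is not a V-ATPase subunit.

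The RNA was sequenced as polyA plus libraries, 2 in all, labelled biological replicates 1 and 2, which form 1 group. The macrophages had received 100 ng/ml lipid A, the TLR4-binding anchor of bacterial lipopolysaccharide, for 12 h, had been washed for 12 h, and had received 100 ng/ml again for 120 min. Other fields of the labels call the agent lipoprotein A. Both libraries carry the same donor identifier, so the spread between them may be technical. No untreated, singly treated or other library was analysed here, so the values are levels after this schedule, and no test between conditions was possible.

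The V-ATPase is a rotary proton pump that acidifies lysosomes and phagosomes. Its cytosolic V1 sector splits ATP, and its membrane-embedded V0 sector passes protons. The same lysosomal surface is where mTORC1 is activated: the pump and Ragulator anchor the Rag GTPases, the Rags recruit mTORC1 when amino acids are plentiful, and Rheb switches the kinase on. Folliculin with its FNIP partners acts on RagC and RagD, and mTORC1 in turn keeps TFEB, TFE3 and MITF out of the nucleus. In the nucleus these factors bind E-boxes near lysosomal and V-ATPase genes.

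Expected counts, the reads assigned to each gene by the authors' quantification, totalled 45341916 in replicate 1 and 32087637 in replicate 2 over annotated genes. Levels are given as TPM, a length-corrected transcript abundance whose total is the same in each library. All 8 macrophage markers examined were at 10 TPM or more in both libraries, with Lyz2 at 8979 and 9815 TPM in replicates 1 and 2. The T cell, B cell, dendritic cell, mast cell, stromal, neuron and kidney intercalated cell markers were all under 1 TPM in both. Neutrophil markers summed to 63.5 TPM in replicate 1 and 6.58 TPM in replicate 2, and their part in the differences between the libraries was not tested.

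In these cells 33 of the 45 genes were at 10 TPM or more in both libraries, against 27.4% of genes with a protein-coding transcript. At 100 TPM or more there were 19 of the 45, against 5.23%. Under 1 TPM in both were 8 of the 45, against 53.4%. The median of the mean log2(TPM + 1) was 5.84 over the 45 genes and 0.40 over all genes with a protein-coding transcript, of which many are not expressed in macrophages. Over the 9763 genes at 1 TPM or more in both libraries it was 4.24, and over the genes of the set at that level it was 6.74. In RNA from whole cultures, fewer cells of a type and less RNA per cell cannot be told apart.

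**Figure D1:**
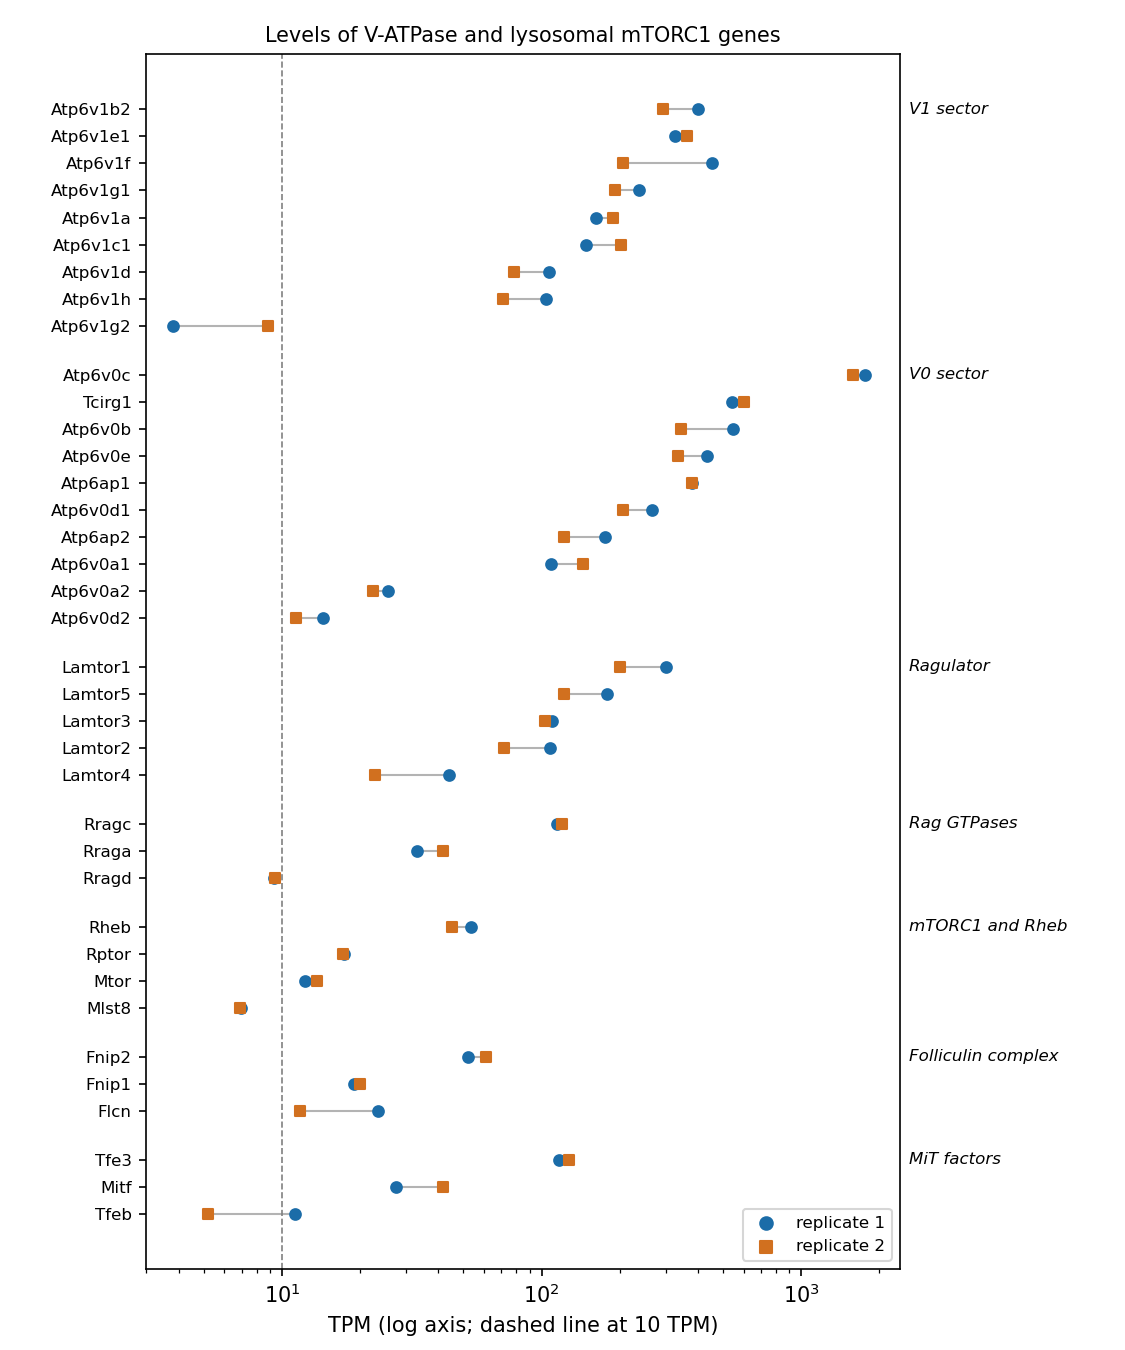
TPM on a log axis of the 37 genes at 1 TPM or more in either library, with circles for replicate 1 and squares for replicate 2, joined by a line and grouped by role. Atp6v0c stands at 1758 TPM in replicate 1 and 1588 TPM in replicate 2, Mlst8 and Atp6v1g2 are at the low end, and most neighbouring genes have overlapping levels.

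The proton-conducting V0 sector held the most abundant transcripts. Atp6v0c, which encodes the proteolipid that forms most of the rotating ring, was at 1758 TPM in replicate 1 and 1588 TPM in replicate 2, rank 55 among genes with a protein-coding transcript. It lies at chr17:24163866-24169702 on the minus strand of mm10. No other gene of the pump reached its level in either library. Tcirg1, the V0 a subunit of lysosomes in phagocytes and of the osteoclast surface, was at 539 and 601 TPM in replicates 1 and 2 (chr19:3896050-3907133, minus strand). Atp6v0b, a related proteolipid of the ring, was at 546 and 344 TPM, and Atp6v0e, a small membrane subunit, at 435 and 336 TPM.

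Atp6ap1, the accessory protein Ac45 needed for assembly, was at 381 and 380.2 TPM, the closest agreement between the libraries among V-ATPase genes. The level of Atp6v0d1, which joins the ring to the V1 rotor, was 266 and 206 TPM. Atp6ap2, the accessory protein also known as the prorenin receptor, was at 176 and 122 TPM. Atp6v0a1 was at 109 and 145 TPM. The remaining detected V0 genes were low: Atp6v0a2 had 25.6 and 22.4 TPM, and Atp6v0d2, an isoform best known from osteoclasts, had 14.4 and 11.4 TPM. Of 9 osteoclast markers examined, 2 were at 10 TPM or more in both libraries, Acp5 at 73.2 and 36.5 TPM and Nfatc1 at 12.4 and 15.4 TPM, while the calcitonin receptor gene Calcr was at 0 TPM in both.

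In the V1 sector no gene was highest in both libraries. Atp6v1b2 was at 401 and 294 TPM (chr8:69088646-69113711, plus strand), below Atp6v1f in replicate 1 and below Atp6v1e1 in replicate 2, and Atp6v1a was at 162 and 188 TPM (chr16:44085402-44139705, minus strand). Their proteins alternate in the ATP-splitting ring in equal number, and the B subunit transcript was above the A subunit transcript in both libraries. Atp6v1e1, of the stator stalks, was at 327 and 363 TPM, and Atp6v1g1, its stalk partner, at 236 and 192 TPM. Atp6v1c1, the C subunit that links the stalks, was at 148 and 201 TPM, of which its leading coding transcript held 129 and 133 TPM. Of the rotor shaft, Atp6v1f was at 454 and 205 TPM and Atp6v1d at 106 and 78.6 TPM. The regulatory subunit Atp6v1h was at 104 and 71.0 TPM.

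Together the V-ATPase genes summed to 6193 TPM in replicate 1 and 5360 TPM in replicate 2, or 0.619% and 0.536% of all TPM. The V0 sector with its accessory proteins contributed 4251 and 3757 TPM, and the V1 sector 1942 and 1603 TPM. Of the 36 neighbouring pairs in the order of mean level, 28 overlapped between the libraries and 8 did not. The order of genes with similar levels is therefore not resolved by these data.

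Where the pump can be built from alternative subunits, 1 paralog held most of the RNA at each position. All 15 pairs of paralogs compared had levels that did not overlap between the libraries. The pairs were chosen with levels from these libraries already known, so this is a description. In several pairs the lower paralog had few or no reads, which left little room for overlap. No share over other pairs of genes was computed, so the count alone says little about the paralogs. Among V0 a subunits, Tcirg1 held 80.1% of the summed TPM in replicate 1 and 78.2% in replicate 2, Atp6v0a1 16.1% and 18.8%, and Atp6v0a2 3.79% and 2.92%. Atp6v0a4, a subunit of kidney intercalated cells, had no read in either library. Atp6v0d1 held 94.9% and 94.8% over Atp6v0d2. Atp6v1g1 held 98.4% and 95.6%, and the rest was Atp6v1g2, best known from brain, at 3.82 and 8.83 TPM.

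Several other subunit forms known from kidney, testis or brain were at or near 0. By expected counts, Atp6v1c2, Atp6v1e2 and Atp6v1g3 had no read, nor did Atp6v1fnb. A second deposited quantification gave Atp6v1c2 0.025 TPM in replicate 1. A count of 0 allows up to 3 reads, or 0.0662 CPM (counts scaled to the library total) in replicate 1 and 0.0935 CPM in replicate 2, for counting error only. Atp6v1b1, the B subunit of intercalated cells, had 1 read in replicate 1 and 0 in replicate 2, and Atp6v0e2 had 1 and 2 reads. The 5 intercalated cell markers examined were under 1 TPM, 4 of them with no read.

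**Figure D2:**
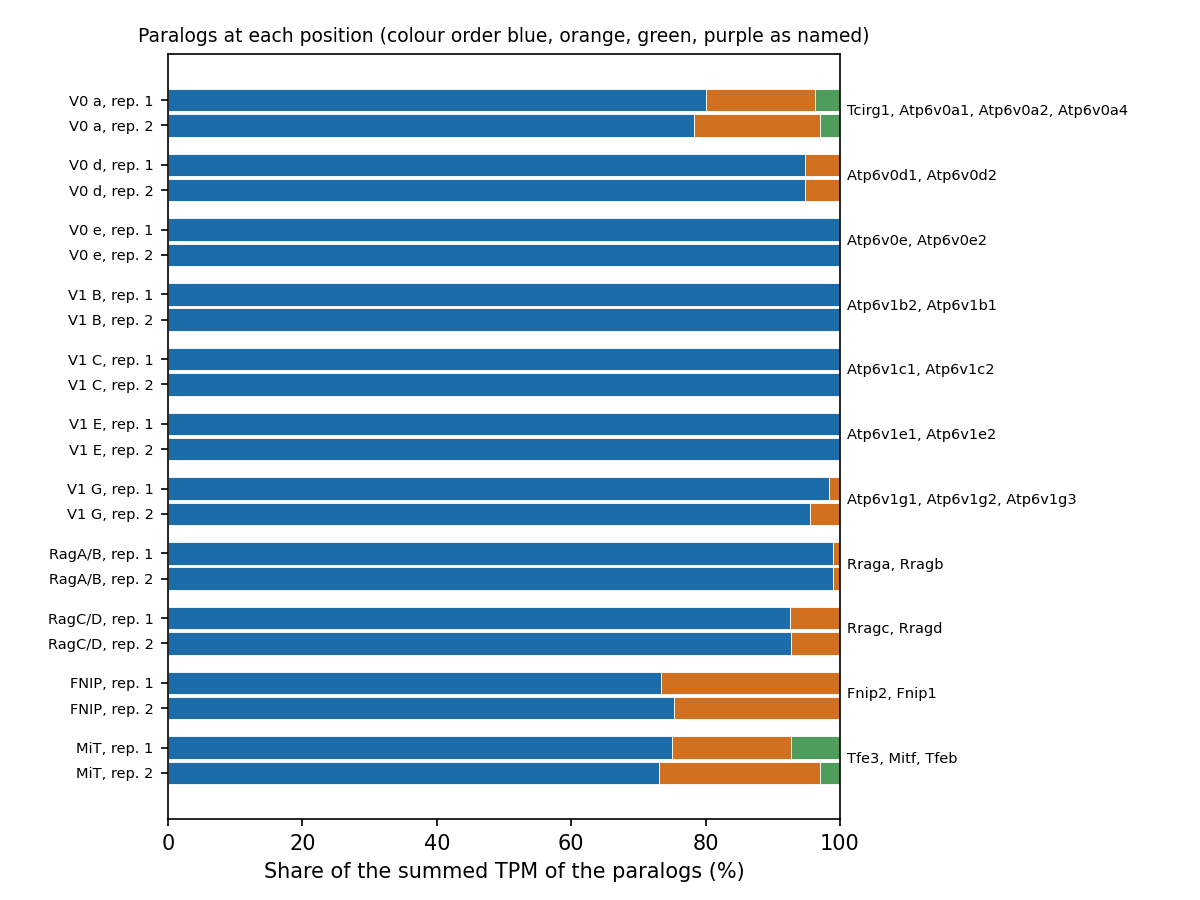
Share of the summed TPM of the paralogs at each position, in percent, with replicate 1 above replicate 2 and the genes named at the right in the order of the colours. Tcirg1 holds 80.1% and 78.2% of V0 a, and Rragc 92.5% and 92.7% of RagC and RagD. Tfe3 averages 74.1% ± 1.35 (SD, n = 2) of Tfe3, Mitf and Tfeb, a sum that leaves out the family member Tfec.

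Ragulator, the scaffold that holds the Rag GTPases on the lysosome, had all of its genes above 10 TPM in both libraries. Lamtor1, its membrane anchor, was at 301 TPM in replicate 1 and 200.2 TPM in replicate 2. Lamtor5 was at 178 and 122 TPM, Lamtor3 at 109 and 103 TPM, Lamtor2 at 108 and 71.3 TPM and Lamtor4 at 44.1 and 22.9 TPM. The 5 subunits, which enter the complex in equal number, summed to 740.2 and 519.5 TPM. Lamtor1 was highest and Lamtor4 lowest in both libraries.

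Of the Rag GTPases, Rragc was at 115 and 120.2 TPM and Rraga at 33.1 and 41.9 TPM. An active heterodimer pairs RagA or RagB with RagC or RagD. Rragb had 7 and 11 reads, or 0.34 and 0.46 TPM, so that Rraga held 99.0% and 98.9% of that side. Rragd, a MiT factor target in other cells, was at 9.31 and 9.42 TPM, and Rragc was 12.4-fold and 12.8-fold above it in replicates 1 and 2.

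Transcripts of the kinase complex subunits Rptor, Mtor and Mlst8 were at lower levels than those of Ragulator. Rheb, the activating GTPase, was at 53.5 and 45.3 TPM. Rptor, the subunit that binds substrates and the Rags, was at 17.4 and 17.1 TPM. The kinase gene Mtor was at 12.2 and 13.6 TPM (chr4:148448611-148557683, plus strand). Mlst8, a subunit that mTORC1 shares with mTORC2, was at 6.96 and 6.92 TPM. Its 584 and 242 expected counts gave a scaled log2 ratio of replicate 1 over replicate 2 of 0.70. The mean effective length used for Mlst8 was 2672 and 1647 bases, so its close TPM values do not mean close counts. All 5 Ragulator genes were above Rptor, Mtor and Mlst8 in both libraries.

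In the folliculin complex, which acts as a GTPase activator for RagC and RagD, Fnip2 was at 51.9 TPM in replicate 1 and 61.0 TPM in replicate 2, and Fnip1 at 18.9 and 20.0 TPM. Fnip2 held 73.3% and 75.3% of the pair. Flcn was at 23.4 and 11.7 TPM.

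Tfe3 was the main MiT factor of the rule, at 117 TPM in replicate 1 and 128 TPM in replicate 2 (chrX:7762560-7775202, plus strand). Mitf was at 27.6 and 41.8 TPM and Tfeb at 11.3 and 5.21 TPM. Tfe3 was 10.4-fold and 24.5-fold above Tfeb in replicates 1 and 2, with Tfe3 close between the libraries and Tfeb not. Tfec, the family member outside the rule, was at 35.0 and 65.9 TPM, within the range of Mitf or above it.

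The rest of the pathway was read from 10 lists of 93 genes, all measured. Of these 54 were at 10 TPM or more in both libraries, against 27.4% of genes with a protein-coding transcript, and 7 were under 1 TPM in both, against 53.4%. The highest by mean level were P2rx4, an ATP-gated channel of lysosomes and the cell surface, at 665 and 640.3 TPM, Rnasek, a V-ATPase-associated membrane protein, at 393 and 301 TPM, and Arl8a, a small GTPase of lysosome transport, at 235 and 373 TPM. In replicate 1 alone, the chloride transporter gene Clcn7, at 253 TPM, was above Arl8a. Those under 1 TPM were Tldc2, Atp6ap1l, Ddit4, Ddit4l, Grb10, Prr5 and Rhebl1. By list, 8 of 9 lysosomal ion channels and 8 of 10 genes of BORC and lysosome positioning reached 10 TPM, and 9 of 15 for V-ATPase assembly and regulation. In the GATOR1 and KICSTOR list, which restrains the Rags, the count was 1 of 7, with none under 1 TPM in both libraries. Among the other mTOR complex subunits it was 2 of 10. It was 10 of 10 for Tfec and factors acting on the MiT family, and 5 of 9 for amino acid sensors and lysosomal transporters. The TSC list had 5 of 9, mTORC1 substrates 4 of 9 and GATOR2 2 of 5. All stand against the same 27.4%, and the difference between lists was not tested.

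For 14 of the 33 genes at 10 TPM in both libraries, the leading transcript held under 90% of the gene's TPM in at least 1 library, against 64.9% of the 5990 genes with a protein-coding transcript at that level. Shares were computed from the deposited transcript table, and a second deposited quantification, made from reads without an alignment, was set beside them. Both methods divide shared reads between overlapping transcripts by a model, so a share is an estimate. The transcripts that follow differ in known coding or splicing features.

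**Figure D3:**
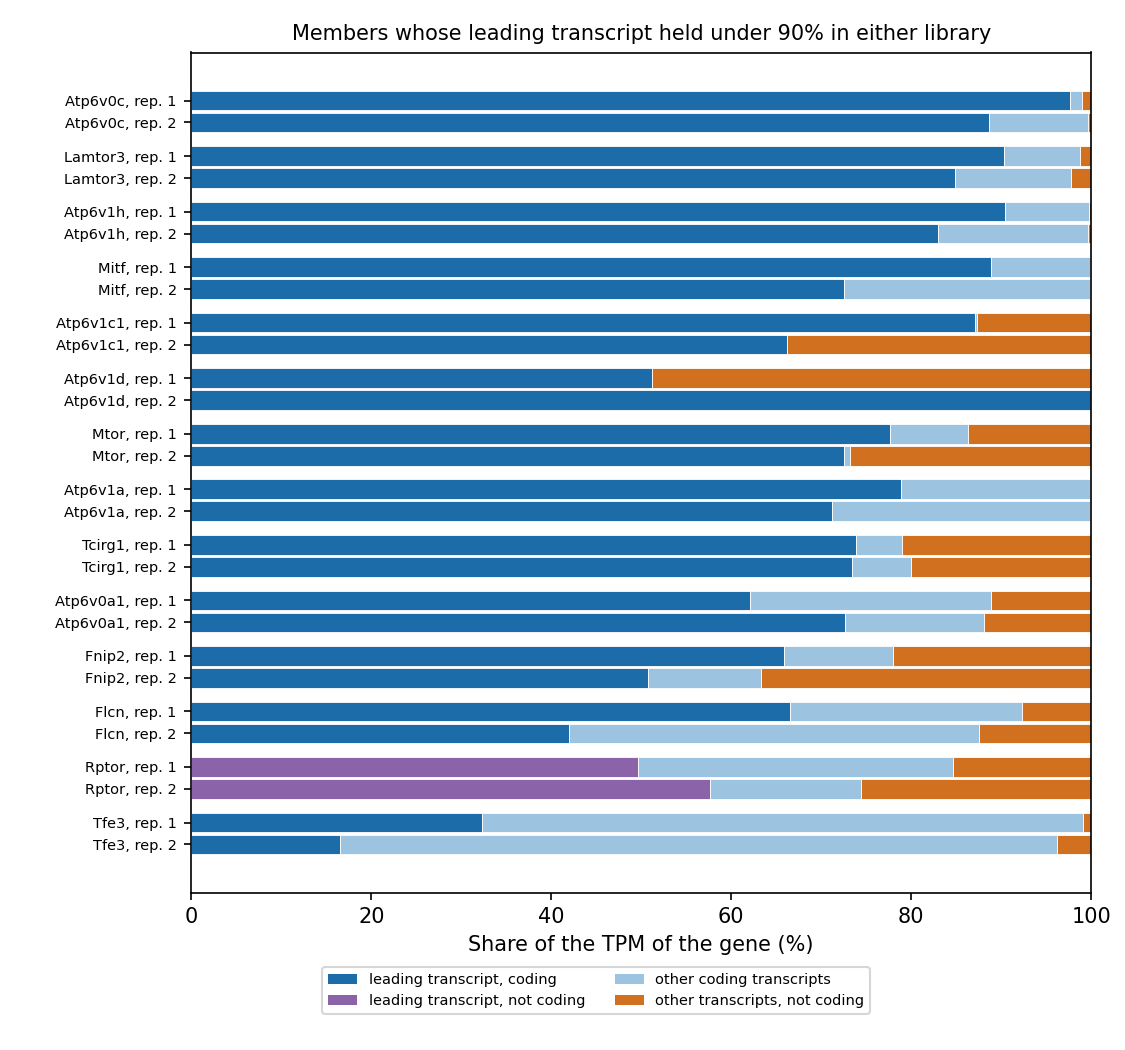
Share of the TPM of the gene in percent for the 14 genes, with replicate 1 above replicate 2. Dark blue or purple is the leading transcript, light blue the other coding transcripts, and orange those annotated as not coding or as targets of decay. The leading transcript of Atp6v1d holds 51.2% in replicate 1 and 100% in replicate 2, and Rptor is led by a transcript annotated for decay.

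The coding segments that separate the transcripts are given here because the estimates turn on the reads that cover or skip them. Capitals mark the segment and lower case the 15 bases on each side in the spliced transcript, from the GENCODE M21 transcripts on mm10, plus strand. The segments are at chr6:98006123-98006140 in Mitf, chr11:101049459-101049476 and chr11:101054831-101054848 in Atp6v0a1, chrX:7767893-7767997 in Tfe3 and chr11:119811945-119812020 in Rptor.
Mitf-202: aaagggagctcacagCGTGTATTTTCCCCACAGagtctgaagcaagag
Atp6v0a1-201: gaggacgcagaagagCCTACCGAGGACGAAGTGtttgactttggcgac
Atp6v0a1-210: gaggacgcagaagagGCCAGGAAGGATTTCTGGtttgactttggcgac
Tfe3-204: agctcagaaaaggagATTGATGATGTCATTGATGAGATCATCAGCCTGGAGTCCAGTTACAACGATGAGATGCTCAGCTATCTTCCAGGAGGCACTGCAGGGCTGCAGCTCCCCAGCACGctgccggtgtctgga
Rptor-201: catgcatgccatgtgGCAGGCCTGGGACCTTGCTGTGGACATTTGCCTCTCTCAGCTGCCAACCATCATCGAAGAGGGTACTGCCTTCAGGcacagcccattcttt

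Mitf has a known alternative segment of 18 bases ahead of its DNA-binding basic region. Transcripts with it held 89.0% of Mitf TPM in replicate 1 and 75.7% in replicate 2, and those without it 10.9% and 24.2%. In the second quantification the shares with the segment were 85.3% and 69.8%. The form with the segment led in both libraries by both methods.

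Atp6v0a1 has 2 alternative segments of 18 bases between the same flanks. Transcripts that skip both and join the flanks directly, such as the leading Atp6v0a1-202, are the main form: this transcript alone held 62.0% and 72.7% in replicates 1 and 2, and 50.6% and 65.4% in the second quantification. Atp6v0a1-201 held 8.53% and 0%, and Atp6v0a1-210 9.71% and 10.1%. Atp6v0a1-203, another coding transcript, held 8.58% and 5.31%, and 21.5% and 13.2% in the second quantification. Atp6v0a1-201 had 0 expected counts in replicate 2 but 6.65% there in the second quantification.

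Tfe3 had no dominant form. A segment of 105 bases was present in transcripts holding 53.9% and 51.2% of Tfe3 TPM in replicates 1 and 2 and skipped in transcripts holding 27.9% and 20.2%. In the second quantification it was skipped in 12.7% and 4.67%. Among complete coding sequences, the longest, of 1716 bases, held 15.3% and 27.7%, the one of 1401 bases 37.7% and 22.8%, and the one of 1296 bases 27.6% and 20.2%. Which complete form was highest therefore differed between the libraries. A fragment of 408 bases with an incomplete coding sequence, Tfe3-214, held another 18.1% and 25.4% from 92 and 98 expected counts.

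Rptor was led by Rptor-211, a transcript annotated for nonsense-mediated decay that lacks the segment of 76 bases, with 49.7% in replicate 1 and 57.6% in replicate 2. The full-length coding transcript Rptor-201 held 32.3% and 16.7%. The second quantification gave the reverse order, with 3.59% and 29.4% for Rptor-211 and 76.0% and 42.3% for Rptor-201. The segment length is not a multiple of 3, so skipping it shifts the reading frame. The leading form of Rptor is not settled by these tables.

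Atp6v1d differed most between the libraries. The short retained-intron transcript Atp6v1d-202 held 48.4% of the TPM in replicate 1, from 792 expected counts, and 0% in replicate 2. It has 87 bases outside the coding transcript Atp6v1d-201. The second quantification gave 59.3% and 0%. Because a short transcript yields few reads, the gene's TPM was higher in replicate 1, at 106 against 78.6 TPM in replicate 2, while its scaled count was lower there, with a log2 ratio of -0.36. The mean effective length used for the gene was 1971 bases in replicate 1 and 3393 bases in replicate 2.

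Several other splits were mainly between transcripts with the same coding sequence. Flcn-203 held 66.6% and 42.0% of Flcn in replicates 1 and 2. Flcn-202, with the same coding sequence, had fewer expected counts in replicate 1, at 383 against 1540 for Flcn-203, but a slightly higher share than Flcn-203 in replicate 2, at 43.6%. In the second quantification Flcn-202 was above Flcn-203 in both libraries, at 44.4% and 57.8% against 39.2% and 27.2%, so the leading form of Flcn is not settled. Atp6v0c-202, which also codes for the same protein as Atp6v0c-201, held 1.26% and 11.0%, and 1.80% and 42.1% in the second quantification. Atp6v1a-202 held 78.8% and 71.2%, and 52.9% and 40.3% in the second quantification. It shares its coding sequence with Atp6v1a-201, at 20.4% and 20.0%, and 28.9% and 37.9% in the second quantification. Atp6v1a-203, a fragment with an incomplete coding sequence, held 0.48% and 8.05%, and 17.4% and 21.2% in the second quantification. Lamtor3-201 held 90.3% and 84.8%, and Lamtor3-203, with the same coding sequence, 3.53% and 7.55%. In Atp6v1h the coding sequence differed: Atp6v1h-201, with 1449 coding bases, held 90.4% and 83.0%, and Atp6v1h-204, with 1395, held 4.65% and 6.18%.

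Transcripts annotated as not coding took a visible share of some genes. Fnip2-205, a retained intron, held 20.1% and 36.2% against 65.9% and 50.8% for the coding Fnip2-203. The coding Tcirg1-201 held 73.8% and 73.4% of Tcirg1, and transcripts that are not coding or are annotated for decay held 21.1% and 20.0%, or 17.2% and 12.0% in the second quantification. The decay-annotated Tcirg1-202 differed most between the methods there, at 9.73% and 12.4% against 0.15% and 0.38% in the second quantification. Mtor-202, the coding transcript, held 77.7% and 72.5% of Mtor, and the retained intron Mtor-204 13.7% and 26.8%. Mtor-204 rested on 17 and 25 expected counts, and the second quantification gave it 10.1% and 0%. Atp6v1c1-206, at 11.6% and 33.2%, and at 31.0% and 36.2% in the second quantification, lies wholly within the leading transcript Atp6v1c1-201, and no base is its own.

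Between the libraries, 37 of the genes had a mean expected count of 10 or more, the limit for a ratio. After scaling by the trimmed mean of M-values, 21 of these 37 were higher in replicate 1, against 51.2% of all 12552 genes tested. Scaled by total expected counts, 26 were higher in replicate 1 and 11 in replicate 2, against 57.1% of all genes higher in replicate 1, and Atp6ap1, Mtor, Rragc, Rragd and Tfe3 changed sign. The median log2 ratio of replicate 1 over replicate 2 was 0.18, against 0.02 over all genes with an SD of 0.79. Past 2-fold in either direction were 3 of the 37, against 11.3%, with 2 higher in replicate 1, against 5.96%, and 1 higher in replicate 2, against 5.35%. Past 1.5-fold were 8 of the 37, against 30.2%. These shares are below those of all genes by few genes, and the sets differ in counts. All 37 had a mean expected count of 100 or more, while all genes tested include those down to 10, where counting error is larger. The shares were not compared at like counts.

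Atp6v1f was higher in replicate 1, with 5966 and 1870 expected counts in replicates 1 and 2 and a log2 ratio of 1.10 (95% counting interval 1.03 to 1.18). Flcn had 2128 and 705 expected counts and a log2 ratio of 1.02 (0.90 to 1.15), and was not past 2-fold in the second quantification. Atp6v1g2 had 96 and 146 expected counts and a log2 ratio of -1.18 (-1.56 to -0.80), and was higher in replicate 2. Atp6v1g2 overlaps Nfkbil1. Other protein-coding genes also overlap Atp6v1b2, Atp6v1e1, Atp6v1h, Fnip2, Lamtor1, Mlst8, Mtor and Rragc. Whether reads were counted by strand is not given in the sources used here. Tfeb, with 623 and 224 expected counts and a log2 ratio of 0.90 (0.68 to 1.13), was past 2-fold on the TPM scale. The intervals cover counting error only.

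All 5 Ragulator genes were higher in replicate 1, with log2 ratios between 0.13 and 0.91, and this direction held under all 3 scalings. Rraga was higher in replicate 2, at -0.36, under all 3 as well. Rragc and Rragd were at -0.07 each, and turned to ratios just above 0 when scaled by total expected counts, at 0.0040 and 0.0006. The counting interval of Rragd, -0.20 to 0.05, includes 0. Transcript length moved with these differences. Of the 12 genes whose mean transcript length was under 1500 bases, 10 were higher in replicate 1, and all 5 Ragulator genes are among the 12. Of the 25 longer ones, 11 were, or 16 when scaled by total expected counts. Over all genes tested, 67.5% of the 3066 under 1500 bases were higher in replicate 1 and 46.0% of the 9486 longer ones. Spearman's rho between length and log2 ratio was -0.42 over the 37 genes and -0.25 over the 12552, as a description across genes that share their libraries. The limit of 1500 bases was chosen after the values were seen. The part of length or RNA quality in the ratios was not tested.

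**Figure D4:**
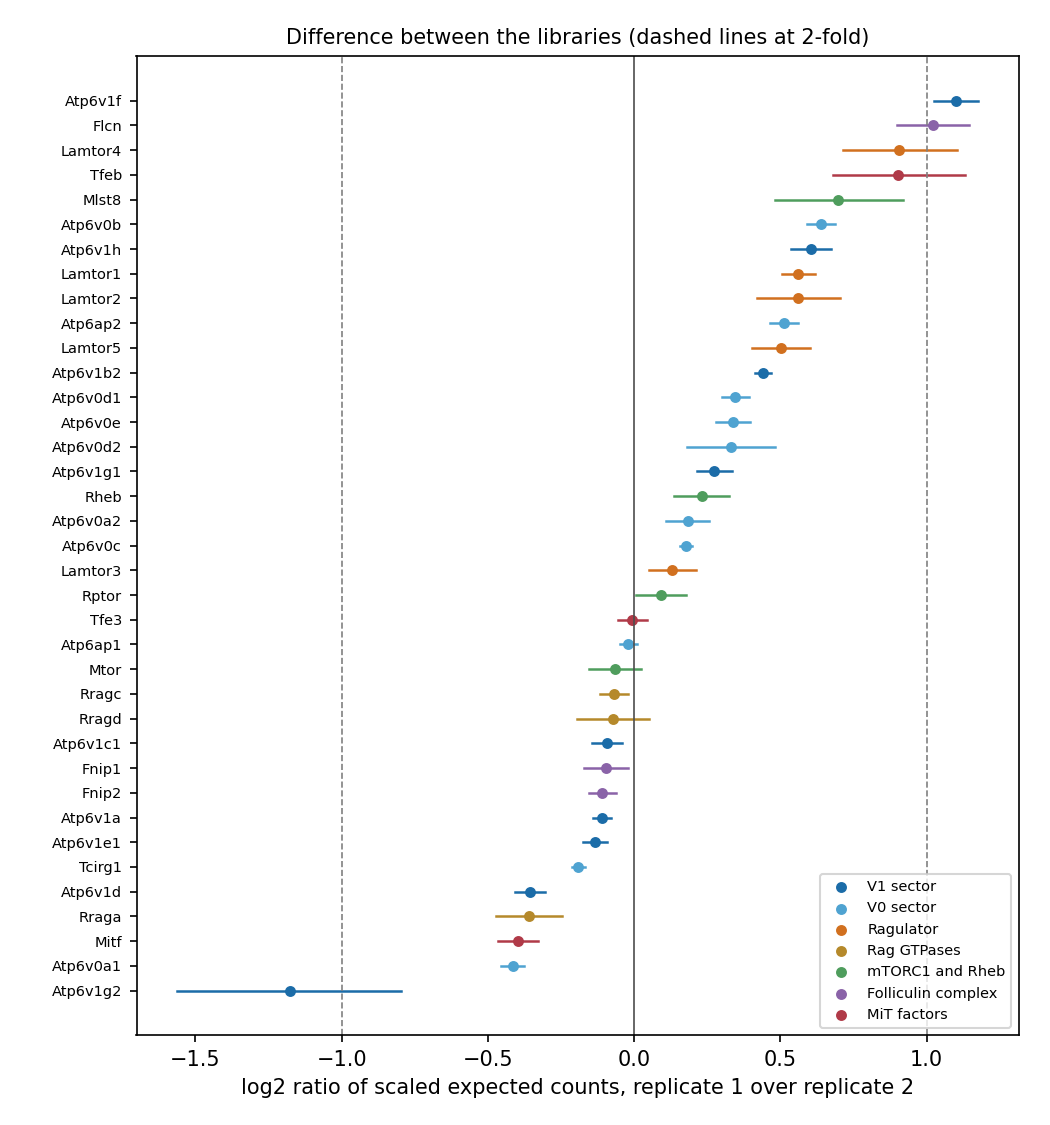
Log2 ratio of scaled expected counts, replicate 1 over replicate 2, for the 37 genes, with bars for the 95% counting interval, colours for the role and dashed lines at 2-fold. Atp6v1f at 1.10 and Flcn at 1.02 lie past the upper line, Atp6v1g2 at -1.18 lies past the lower line, and all 5 Ragulator genes lie above 0.

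Promoter sequence was read for the same genes, since MiT factors bind the E-box CACGTG, which reads the same on both strands. RefSeq windows on GRCm38.p6, from 250 bases before to 50 bases after each start site, were found for 38 of the 45 genes. The E-box was in at least 1 window of 10 of the 38, or 26.3%. Over all genes with a window the share was 8.09%, over those with a protein-coding transcript 9.18%, and over those at 10 TPM in both libraries 13.2%. Of the 26 genes of the set at that level, 9 held it, or 34.6%. The longer palindrome TCACGTGA, which contains the E-box, was in 3 of the 38, or 7.89%, against 1.12% of all genes, 1.45% of those with a protein-coding transcript and 2.93% of those at 10 TPM in both libraries. Of the 26 genes here at that level, 3 held it, or 11.5%. The CLEAR consensus, which adds a G at the 5′ end and a C at the 3′ end of that palindrome, was found in 0 of the 38 and in 0.370% of all genes.

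The stretches around the E-box are shown for the 3 V-ATPase genes with the longer palindrome, for Atp6v0b and Lamtor4 with 2 E-boxes each, and for Lamtor1 and Rragc as the highest Ragulator and Rag genes. Capitals mark CACGTG, and each is written along its gene's strand. Atp6v0d1 is from chr8:105566045-105566104 (minus), Atp6v0e from chr17:26676362-26676415 (plus), Atp6v1a from chr16:44139348-44139427 (minus), Atp6v0b from chr4:117887310-117887402 (minus), Lamtor4 from chr5:138255325-138255420 (plus), Lamtor1 from chr7:101905732-101905811 (plus) and Rragc from chr4:123917284-123917363 (plus).
Atp6v0d1: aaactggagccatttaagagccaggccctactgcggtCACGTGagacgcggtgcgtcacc
Atp6v0e: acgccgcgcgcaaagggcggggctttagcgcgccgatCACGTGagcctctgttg
Atp6v1a: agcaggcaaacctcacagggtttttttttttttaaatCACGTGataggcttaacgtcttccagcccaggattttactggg
Atp6v0b: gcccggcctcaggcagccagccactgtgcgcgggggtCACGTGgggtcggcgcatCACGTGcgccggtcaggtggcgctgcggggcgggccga
Lamtor4: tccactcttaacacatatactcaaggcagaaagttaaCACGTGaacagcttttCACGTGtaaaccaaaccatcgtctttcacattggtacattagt
Lamtor1: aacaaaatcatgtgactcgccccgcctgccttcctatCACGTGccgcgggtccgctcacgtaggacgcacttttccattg
Rragc: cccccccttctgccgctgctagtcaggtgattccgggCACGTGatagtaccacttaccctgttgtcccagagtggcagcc

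The E-boxes lay at different distances from the start site. In Atp6v0d1 the E-box spanned it, from base -3 to base 3, and in Atp6v0e it began at base 4. In Atp6v1a it began at base -131, in Rragc at base -112, and in Atp6v0b the 2 E-boxes began at bases -36 and -18. Tcirg1 and Atp6v0c, the most abundant a subunit and proteolipid, had windows without the E-box. Rragb had 3 E-boxes and 0.34 and 0.46 TPM, so a match did not go with a high level in every gene. A match is a string of letters and does not show binding, or which factor would bind.

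**Figure D5:**
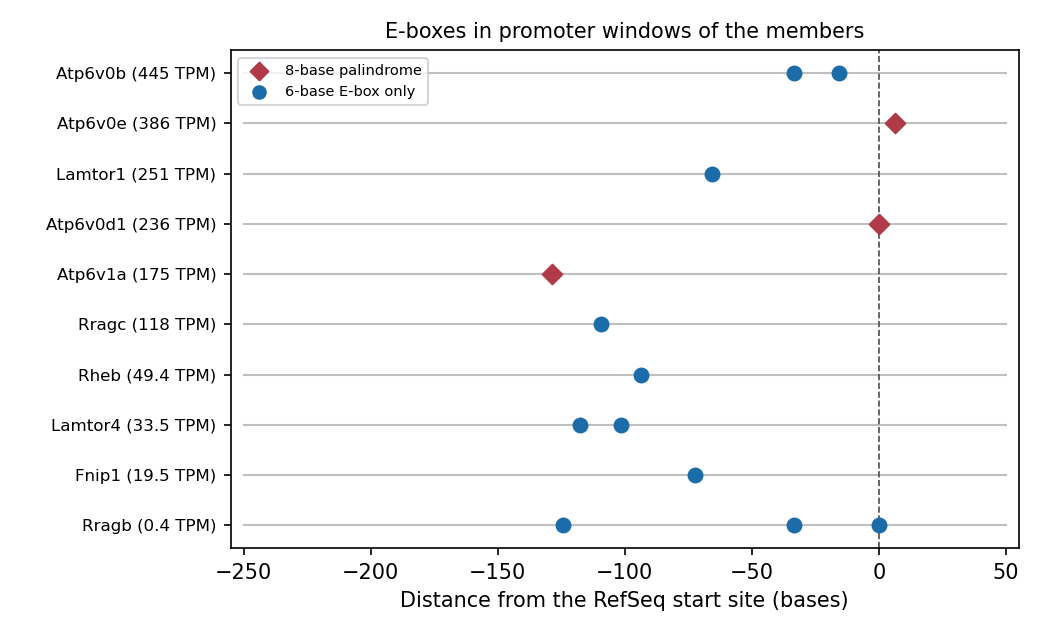
Position of each E-box relative to the RefSeq start site, in bases, for the 10 genes with a match, ordered by mean TPM, with diamonds where the 8-base palindrome matched. Of the 10, 9 are at 10 TPM or more in both libraries, and Rragb, with 3 E-boxes, averages 0.40 TPM.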

How the data were processed

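PolyA plus RNA of 2 mouse macrophage libraries was analysed from 3 deposited tables per library, on mm10 with GENCODE M21 per the notes deposited with the samples. Which programs made them is not given in the sources used here. Expected counts in the deposited gene table are reads assigned to each gene by a model, so fractions occur. The deposited TPM and FPKM values are corrected for length and depth by the authors, and FPKM served as an alternative. A deposited column of each transcript's percent of its gene's TPM differed from the shares computed here by at most 0.04 points. The deposited posterior standard deviation of each count, used as a score of assignment, was at most 3.97 reads in replicate 1 and 2.23 in replicate 2 for these genes. A second deposited table of estimated counts and TPM, made from reads without an alignment, was summed to genes. Rows that name no gene held 0.0788% and 0.0771% of expected counts and stayed out of library sizes.

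Expected counts were rounded to whole numbers for scaling by edgeR 4.0.16 (TMM, main) and DESeq2 1.42.0 (alternative), in R 4.3.3. Log2 ratios of replicate 1 over replicate 2 used a prior of 0.5 reads and a mean expected count of at least 10. They are given with exact 95% counting intervals. The ratios, but not the intervals, were tested on simulated counts that held counting error only. With 1 group there is no test between conditions and no p-value. Levels use TPM with a pseudocount of 1 on the log2 scale. Promoter sequences are RefSeq's, and 7 genes had no entry: Atp6v0a2, Atp6v0d2, Atp6v1b2, Atp6v1c1, Atp6v1g1, Atp6v1h and Lamtor3. The gene set, lists and pairs were chosen with earlier results of these data known. Every gene at 1 TPM or more is named, as is the leading transcript of each gene at 10 TPM where it held under 90%. Alternatives were FPKM, the second quantification, other thresholds, pseudocounts, priors, filters and scalings, and leaving out each library.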

Additional observations from a re-analysis of the deposited data

Results flagged for a closer look

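Reads were also assigned to Atp6v0c-ps2, a pseudogene of Atp6v0c outside the gene set, which no comparison used. It had 46.95 expected counts in replicate 1 and 4.32 in replicate 2, or 7.89 and 1.04 TPM, above the limit that a count of 0 allows. The second quantification gave 1.34 and 0.198 TPM. Atp6v0c itself had 48993 and 29157 expected counts. The posterior standard deviation of the count was the same for both genes, at 3.97 reads in replicate 1 and 0.68 in replicate 2. Whether the reads assigned to Atp6v0c-ps2 come from the pseudogene or from Atp6v0c was not tested. Atp6v0c-ps1 had 0 expected counts in both libraries.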

How the results depend on the processing

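No paired analysis was possible because the series holds 1 group. The count of genes at 10 TPM, the count under 1 TPM, the count of pathway genes at 10 TPM and the count with a split leading transcript stayed within 1.5 times of the values given under every alternative run. Without the filter on low counts the median log2 ratio of replicate 1 over replicate 2 was -0.0062 in place of 0.18, since genes with 0 to 11 reads entered, and 6 genes were past 2-fold in place of 3. At 1.5-fold the number was 8, against 30.2% of all genes. Counting just the genes at 1 TPM or more gave a median log2 level of 6.74 in place of 5.84. The summed V-ATPase level averaged 5777 ± 589 TPM (SD, n = 2) and was 5162 TPM in the second quantification. None of the 15 paralog differences changed sign in the second quantification. Another pseudocount or leaving out a library could not change a sign, since the levels of each pair did not overlap. The depth leaves genes under about 10 reads, such as Atp6v0e2, Atp6v1b1 and Rragb, without a usable ratio, and the 2 libraries give no estimate of variation between animals.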
